A study of Mus musculus with 3 samples.

Results

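Genes of the proteasome and of the ubiquitin pathway were followed in mouse neural retina. They were taken by name, by a rule that reads no measured values but was chosen with earlier results of these data known. It took every non-control probe set with a single gene symbol for a proteasome subunit, regulator or assembly factor (Psma to Psmg). Sets for ubiquitin activating or conjugating enzymes (Uba, Ube), ubiquitin proteases (Usp, Uch), cullins, Skp, Rbx and F-box proteins, Nedd4, Nedd8 and SUMO proteins were taken likewise. This naming rule found 171 of 12422 probe sets, which stand for 127 of 8251 named genes. Of the 171, 130 carry the plain _at suffix of sets designed against a single transcript, and the other 41 carry suffixes such as _f_at, _s_at or _r_at, which mark sets open to related transcripts or built under relaxed rules.

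The retinas came from wild-type mice at postnatal day 10, on a mixed background of 129/SvEv and C57BL/6, whose littermates included the Rp1-/- mice of a parallel experiment. Total RNA was taken from 3 pools, each made from neural retinas of 3 to 4 mice that were taken at 1 to 2 pm, and hybridised to Affymetrix U74Av2 arrays. The titles of pools 2 and 3 also carry the term rp1, while the descriptions of all 3 pools call the mice wild type, which was followed. The 3 pools form 1 group, so nothing could be compared between conditions, and the values below show which members were measurable and how far the pools differed. Pooling hides the spread between single animals, and in tissue RNA fewer cells of a type and less RNA per cell cannot be told apart.

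The ubiquitin system marks proteins for destruction. An E1 enzyme activates ubiquitin, an E2 enzyme carries it, and an E3 ligase transfers it to the target; chains of ubiquitin are then read by the 19S regulatory particle of the proteasome, which unfolds the protein and feeds it into the 20S core, while deubiquitinases remove or recycle the chains. Postmitotic neurons such as photoreceptors depend on this turnover, and defects in it are known from inherited retinal disease.

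Signals are the deposited linear intensities. A probe set was described as above background on an array when it exceeded the 90th percentile of 102 probe sets whose 81 genes are expressed chiefly outside the retina. That limit was 312, 436 and 290.0 on the arrays of pools 1, 2 and 3, with a mean of 346 that serves below as the mean limit. Where a gene had more than 1 probe set, the set with the highest mean stood for it. Signals compare pools within a probe set and do not rank genes by amount of transcript. Among the markers set out for the tissue, the 5 measured rod genes and both measured cone genes exceeded background throughout. Crx, a photoreceptor transcription factor, stood at 7439 ± 888 (SD, n = 3), while Gnat1, the rod transducin alpha subunit, read 1015, 1101 and 10970.1 in pools 1, 2 and 3, a range of 10.8-fold. The summed signal of the 5 rod genes was 41020.0, 44190.5 and 64286. The 3 measured markers of pigment epithelium (Tyr, Tyrp1 and Ttr) were above it on none. The pools were not alike in every respect. The summed signal of 5 lens markers was 48961, 7410 and 164375 in pools 1 to 3, that of 3 red blood cell markers was 21740, 4512 and 14756, and the 3′ signal of the Actb control sets divided by the 5′ signal was 1.20, 1.44 and 1.69. The same ratio for Gapdh was 0.95, 0.88 and 0.93. The part of these differences in the results below was not tested.

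The pathway was well represented. On all 3 arrays 102 of its 171 probe sets (59.6%) exceeded background, against 33.0% of all non-control probe sets, whereas 46 did so on none and 23 on 1 or 2 arrays. By gene, 89 of 127 (70.1%) were above background throughout, against 40.2% of all named genes, and 28 were on none. The share differed between roles. It was 31 of 34 for the genes grouped by name under the 20S core and the 19S particle, which include the assembly factors Psmd5, Psmd9 and Psmd10, 13 of 21 for E2 enzymes, 16 of 29 for deubiquitinases and 10 of 16 for F-box proteins.

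The 20S core is a barrel of stacked rings. Its outer rings are built from the alpha subunits (Psma genes), which gate the entry, and its inner rings from the beta subunits (Psmb genes), which hold the proteolytic sites. All 7 alpha subunits were above background on every array, and every one of them was highest in pool 2. Psma3 read 2602, 4301 and 3841 in pools 1, 2 and 3, on a set with the _f_at suffix. Psma5 read 1231, 1729 and 925 in the same order, a 1.87-fold range that was the widest of the 7. Psma7 read 1443, 2174 and 1838. Pool 1 was the lowest for 3 of the 7 and pool 3 for the other 4, so that only the place of pool 2 was shared.

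The other alpha subunits had the same pool at the top. Psma1 read 439.5, 619 and 375 in pools 1, 2 and 3, Psma2 read 2835, 3501 and 3010.1, and Psma4 read 1986, 2514 and 1888. Psma6 differed least, at 2629, 2859 and 2551, with a mean of 2679 ± 160.3 (SD, n = 3). The excess of pool 2 over the next pool ran from 1.09-fold to 1.41-fold, with a median of 1.18-fold. The median deviation of the 7 genes from their own means was -0.09, 0.28 and -0.07 in pools 1, 2 and 3 on the log2 scale, against 0.03, -0.01 and -0.01 for the 4051 genes above the mean limit, of which 33.2% were highest in pool 2. All 7 were also highest in pool 2 after median scaling and after quantile normalization. Median scaling shifted pools 1 and 2 by 0.06 and -0.06 on the log2 scale, at the median of genes above the mean limit. Before it Psma6 deviated by -0.03 and 0.10 in these pools, so its lead after it was very slight. Pool 2 was the pool with the lowest signal of lens and red blood cell markers, and the part of that in this order was not tested.

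**Figure D1:**
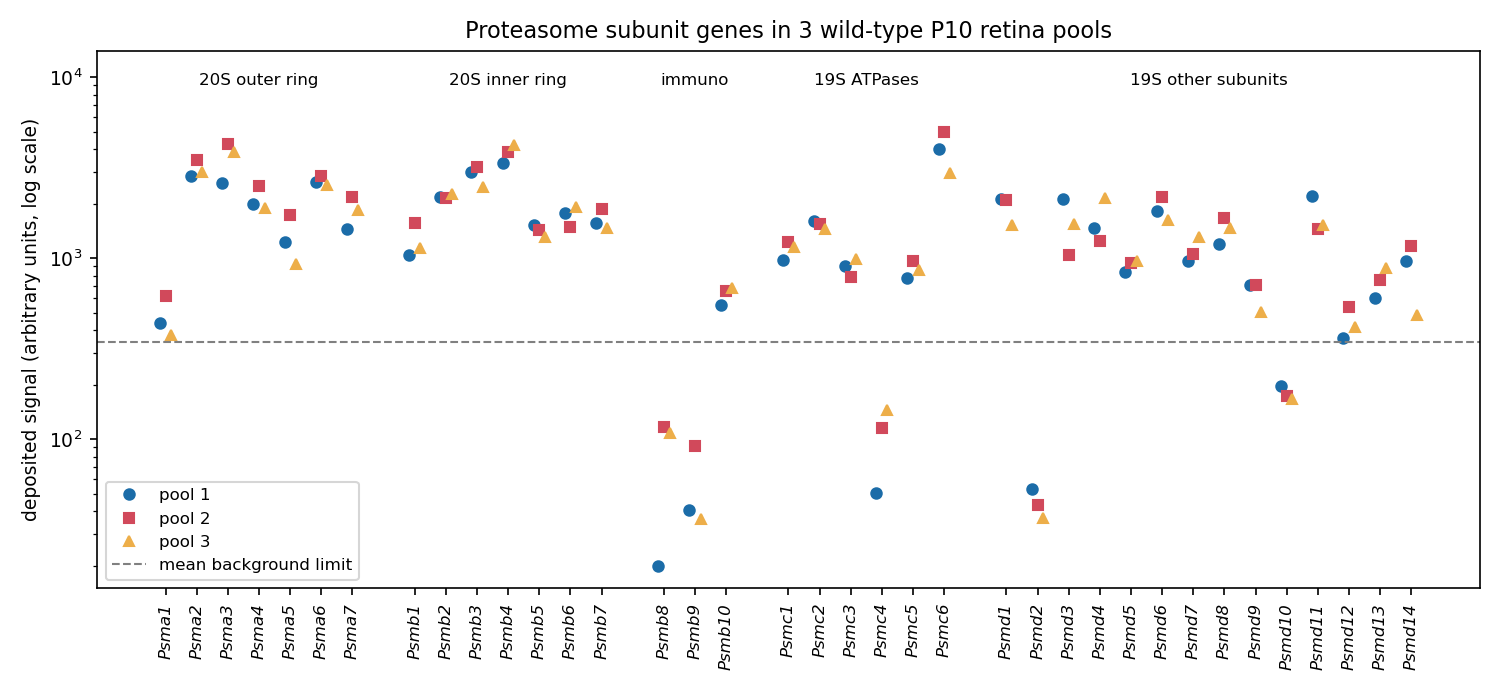
Deposited signal, on a log scale, of every measured gene of the 20S, immunoproteasome and 19S groups in pools 1 (circles), 2 (squares) and 3 (triangles), with the mean background limit of 346 as a dashed line. All 7 Psma genes are highest in pool 2, while Psmb8, Psmb9, Psmc4, Psmd2 and Psmd10 lie below the limit in every pool.

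The beta subunits of the constitutive core were also above background throughout, 7 of 7, but no pool led them. Pool 2 was highest for 3, pool 3 for 3 and pool 1 for 1, and the median deviations were -0.01, 0.02 and -0.11 on the log2 scale in pools 1, 2 and 3. Psmb5, which carries the chymotrypsin-like site, read 1523, 1437 and 1312, with a mean of 1424 ± 106 (SD, n = 3). Psmb6, with the caspase-like site, read 1775, 1482 and 1920, and Psmb7, with the trypsin-like site, read 1565, 1860.1 and 1467. On these brightest sets the order of the pools differed between the 3 catalytic subunits. A second Psmb5 set, above background throughout, had the same order as Psmb7, at 472, 591 and 357. The counts by highest pool also rest on the brightest sets. Psmb2 was the closest between pools of all 119 member probe sets above the mean limit, at 2177, 2140.4 and 2260.1, with an SD of 0.04 on the log2 scale. Psmb3 read 2999, 3205 and 2467 and Psmb4 read 3351, 3858 and 4245.

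Of the interferon-inducible subunits that replace the catalytic ones in the immunoproteasome, only Psmb10 was above background, at 554, 655 and 684 in pools 1, 2 and 3. Psmb8 read 19.9, 116 and 108, and Psmb9 read 40.8, 91.7 and 36.2, below the limit on every array. Psme1, a subunit of the PA28 activator that is likewise induced by interferon, was above it at 710.2, 672 and 768. So were the class I antigen genes H2-D1, at 616, 689 and 1007 in pools 1, 2 and 3, and H2-K1, at 525, 616 and 487. Their partner B2m, at 138, 247 and 207, was above background on no array, as were Irf1, a transcription factor of the interferon response, and Tap2. Of the 8 interferon and immune markers measured, 3 were above background throughout, namely H2-D1, H2-K1 and Cx3cr1. Ptprc, also among the 8, was above it on no array. Tap1, the peptide transporter gene, exceeded its limit only in pool 1, where it read 369.5, against 291 and 197 in pools 2 and 3. Other interferon-inducible members were below the limit on all arrays, among them Usp18 and Ube2l6, which remove and attach the ubiquitin-like protein Isg15, and so was Isg15 itself. Uba7, the E1 of that protein, was above background only in pool 1, with 387, 348 and 176 in pools 1 to 3.

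The 19S particle consists of a ring of ATPases (Psmc genes), which unfold the substrate, and further subunits (Psmd genes) that bind ubiquitin chains and cut them off. Of the 6 ATPase genes, 5 exceeded background on every array. Psmc6 read 4016, 4994 and 2945 in pools 1, 2 and 3, the widest range of the 5 at 1.70-fold, and Psmc2, the narrowest, read 1611, 1553 and 1458. Psmc1 stood at 1123 ± 132, Psmc3 at 894 ± 102 and Psmc5 at 867 ± 96.0 (SD, n = 3). The brightest Psmc3 set, used here, was highest in pool 3. Its other sets, at 626, 715 and 679 and at 323, 437 and 371, were highest in pool 2. Psmc4, whose product sits in the same ring, was not above background, with 50.5, 116 and 145. A probe set below the limit is no evidence that the transcript is missing.

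Among the other genes of the 19S group, 12 of 14 genes exceeded background on every array. Pool 2 was highest for 5 of the 12, pool 3 for 4 and pool 1 for 3. The shares of all genes above the mean limit were 33.2%, 32.5% and 34.3% in that order. For Psmd9 pool 2 was highest only by 710.4 against 708.6 in pool 1. Psmd14, the deubiquitinase of the lid, read 959, 1162 and 483 in pools 1 to 3, a range of 2.41-fold. Psmd3 moved otherwise, at 2118, 1035 and 1540.1, a 2.05-fold range with pool 2 lowest. Psmd4, a ubiquitin receptor, was highest in pool 3, at 1467, 1243 and 2144. These genes thus did not share an order. Psmd5, an assembly factor of the base, varied least of the 12, at 838, 945 and 969.5. Psmd12 read 361, 539.6 and 414, with pool 2 highest. Psmd1 stood at 1910.0 ± 342, Psmd6 at 1877 ± 270.1, Psmd8 at 1447 ± 239 and Psmd11 at 1724 ± 417 (SD, n = 3). Not above background on any array were Psmd2, at 53.3, 43.1 and 36.8, and Psmd10, at 196, 174 and 166, the latter being an assembly factor rather than a subunit of the finished particle.

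Activators and assembly chaperones followed at 6 of 7 genes above background. Psme3, the nuclear activator, stood at 539 ± 57.2, Psme4, a single-chain activator, at 537 ± 50.6 and Psmg4 at 811 ± 81.5 (SD, n = 3). Psmg1 read 533, 568 and 322 in pools 1, 2 and 3, the widest range of the group at 1.76-fold. Pool 3 was lowest for 5 of these 6 genes, though for Psmg3 only by 808.7 against 809 in pool 1. The share of all genes lowest in pool 3 was not computed. Psmg2, at 222, 395 and 216, was above background on none. A pair of genes matched the rule by name only, since their products are partners of a subunit: Psmc3ip, a meiotic recombination factor, was above background on no array, and Psme3ip1 stood at 806 ± 102 (SD, n = 3). Over the 31 genes of the 20S and 19S groups above the mean limit, 18 were highest in pool 2, among them the 7 alpha subunits, 8 in pool 3 and 5 in pool 1, against 33.2%, 32.5% and 34.3% of all genes above it. The counts rest on the brightest sets, with Psmd9 in pool 2 by a near tie and Psmc3 in pool 3.

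Promoter sequence was taken from RefSeq for 98 of the 127 genes, as the 250 bases before each annotated start on GRCm38.p6. Both strands of these 120 promoters were searched for CCAAT, the core letters bound by the factor NF-Y, for CCGGAAG, a core of sites for ETS factors, and for TGACNNNGC, letters shared by antioxidant response elements, which the factor Nfe2l1 binds when it raises proteasome genes. None of the 3 motifs contains another. CCGGAAG stood in 10 of 30 promoters of genes in the 20S and 19S groups (33.3%), against 15.1% of the 3562 promoters of genes above background on all arrays and 6.91% of all 32851. CCAAT stood in 11 of the 30 (36.7%), against 34.6% and 33.8%. TGACNNNGC stood in 5 of the 30 (16.7%), against 11.1% and 10.2%. Of the 8 promoters of the alpha subunit genes, 5 held CCAAT, 1 held CCGGAAG (12.5%) and none held TGACNNNGC. These are matches of letters and not sites shown to be bound. The 4 promoters that follow are those of alpha subunits highest in pool 2 (Psma3 and Psma7) and of 19S subunits with another motif content (Psmc6 and Psmd4), 5′ to 3′ on the strand of the gene and ending 1 base before its start. Capitals mark the motifs on either strand.
Psma3, chr12:70974373-70974622, plus strand: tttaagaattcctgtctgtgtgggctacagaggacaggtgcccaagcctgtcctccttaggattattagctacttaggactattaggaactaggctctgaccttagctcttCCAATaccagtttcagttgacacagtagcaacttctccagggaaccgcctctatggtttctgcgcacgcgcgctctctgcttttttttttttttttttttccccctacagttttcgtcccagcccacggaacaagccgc
Psma7, chr2:180042465-180042714, minus strand: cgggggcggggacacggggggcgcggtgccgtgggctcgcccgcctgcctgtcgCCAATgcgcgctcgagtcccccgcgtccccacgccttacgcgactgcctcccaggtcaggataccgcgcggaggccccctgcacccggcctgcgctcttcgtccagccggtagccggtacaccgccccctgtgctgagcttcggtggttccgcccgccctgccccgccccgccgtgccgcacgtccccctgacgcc
Psmc6, chr14:45329574-45329823, plus strand: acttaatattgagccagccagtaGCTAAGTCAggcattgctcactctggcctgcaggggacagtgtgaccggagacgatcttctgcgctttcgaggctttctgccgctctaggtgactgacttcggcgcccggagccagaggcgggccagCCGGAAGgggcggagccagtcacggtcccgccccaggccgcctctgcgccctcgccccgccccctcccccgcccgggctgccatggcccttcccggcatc
Psmd4, chr3:95042615-95042864, minus strand: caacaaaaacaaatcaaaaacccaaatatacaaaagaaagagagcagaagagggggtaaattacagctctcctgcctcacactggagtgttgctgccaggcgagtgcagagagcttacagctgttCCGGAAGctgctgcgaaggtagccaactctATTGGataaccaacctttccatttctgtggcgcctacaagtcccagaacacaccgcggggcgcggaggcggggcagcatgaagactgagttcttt

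In the Psma3 promoter the capitals are a CCAAT on the gene's strand whose first printed base lies at -139 from the start, and in that of Psma7 a CCAAT at -196. The Psmc6 promoter holds TGACNNNGC on the opposite strand at -227 and CCGGAAG at -100, and that of Psmd4 holds CCGGAAG at -125 and CCAAT on the opposite strand at -95. Psma3, Psma7 and Psmc6 were all highest in pool 2, whereas Psmd4 was highest in pool 3, as given above. Psma4 and Psma5, also highest in pool 2, held none of the 3 motifs. A link between motifs and the order of the pools was not tested. Nfe2l1 read 1646, 1196 and 1712 in pools 1, 2 and 3, and its part in the signals of the proteasome genes was not tested.

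E1 enzymes activate ubiquitin or ubiquitin-like proteins, and 3 such genes were measured. Uba3, the catalytic subunit of the E1 for the ubiquitin-like protein Nedd8, was above background on all arrays, at 335, 649 and 393 in pools 1, 2 and 3. That 1.94-fold range had pool 2 highest, and the value in pool 1 lay close to its limit of 312. Uba1y, the Y-linked E1, was above background on no array, and the main E1 gene Uba1 was not analysed here. Nedd8 itself read 1758, 2138 and 2005, and the modifier Sumo3 read 4753, 4516 and 4422. Sumo3 was among the closest members, at 4564 ± 170.3 (SD, n = 3).

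E2 enzymes take ubiquitin from the E1. Of 21 measured, 13 were above background on all arrays, 2 on some and 6 on none. Of the 14 above the mean limit, 8 were highest in pool 1, 5 in pool 2 and 1 in pool 3, against 34.3%, 33.2% and 32.5% of all genes above it, and the median deviations were 0.16, 0.13 and -0.15 on the log2 scale. Ube2k, which builds chains that direct proteins to the proteasome, read 1030.4, 766 and 380.2 in pools 1 to 3, a range of 2.71-fold, while its second set was nearly level at 498, 529 and 468. Ube2e1 read 331, 688 and 381, a 2.08-fold range with pool 2 highest. Ube2b, a partner of the Rad18 ligase, read 1031, 933 and 738, and Ube2g1 read 1273, 1210.0 and 736, so that both were lowest in pool 3. Ube2a, the close relative of Ube2b, read 324.5, 390.0 and 348 and was above background in pools 1 and 3, and Ube2d2a, a widely used E2, read 789, 1469.5 and 1075, with pool 2 highest. Ube2n and its cofactor Ube2v1, which together build chains used in signalling rather than destruction, were measured at 1786 ± 265 and 1752 ± 149 (SD, n = 3). Ube2v1 had the narrowest range of the group, 1.18-fold.

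Ube2c, the E2 of the anaphase-promoting complex, read 159.9, 335 and 131 in pools 1, 2 and 3 and was above background on none. Ube2t, an E2 of DNA repair, was also on none. Ube2s, which extends the chains that Ube2c starts, was above background on all arrays, at 989, 512 and 637. The proliferation markers Mki67, Top2a and Cdk1 were above background on no array, while Pcna, at 1049 ± 204 (SD, n = 3), and Ccnd1 were on all.

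E3 ligases choose the target. Among HECT and U-box ligases, Nedd4 read 4271, 2825 and 2909 in pools 1, 2 and 3 on its brightest probe set, and Nedd4l stood at 664 ± 94.0 (SD, n = 3). Ube3a, the ligase lost in Angelman syndrome, was the member of this group with the widest range, at 331, 655 and 263, and it was not above background in pool 3. Ube4b, a ligase that lengthens chains, was among the closest members, at 895, 944 and 959. On their brightest sets the 4 genes had median deviations of 0.03, 0.07 and -0.21 on the log2 scale in pools 1, 2 and 3. Those of all genes above the mean limit were 0.03, -0.01 and -0.01. The second sets of Nedd4 and Nedd4l went the other way in pool 3, at 0.31 and 0.10.

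Cullin ligases are modular. A cullin scaffold, charged with Nedd8, binds a RING protein at one end and an adaptor with a substrate receptor at the other; Skp1 is the adaptor that links Cul1 to F-box proteins. The cullins above background were close between pools. Cul1 read 1459, 1663 and 1813, Cul2 read 742, 807 and 898, Cul3 read 2072, 1760.0 and 1528, and Cul4a read 1692, 1446 and 1308. Cul1 and Cul2 had their maximum in pool 3 and their minimum in pool 1, whereas Cul3 and Cul4a had the opposite order. Cul7 was above background on no array.

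Skp1 departed most. It read 716, 3567 and 1497 in pools 1, 2 and 3, and the 4.98-fold range was the widest among the 119 member probe sets above the mean limit. All 3 values were above background, and each pool stood far from the others. A single Skp1 probe set was available, so no second set could be compared with it. Its partner Cul1, by contrast, had a 1.24-fold range, and the F-box genes above the mean limit ranged up to 2.83-fold. The 250 bases before the start of Skp1, the gene with the widest range, held none of the 3 motifs and are therefore all in lower case.
Skp1, chr11:52231745-52231994, plus strand: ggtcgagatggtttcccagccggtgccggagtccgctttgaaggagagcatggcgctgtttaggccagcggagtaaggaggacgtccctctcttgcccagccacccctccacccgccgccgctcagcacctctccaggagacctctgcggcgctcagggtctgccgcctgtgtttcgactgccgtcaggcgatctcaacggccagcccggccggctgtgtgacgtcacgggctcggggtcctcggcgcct

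F-box proteins are the receptors of Skp1-cullin ligases. Of 16 measured, 10 were above background on all arrays, 1 on some and 5 on none, among the latter Fbxl5, a regulator of iron metabolism, Fbxl12, Fbxl15 and Fbxo15. Fbxo45, a ligase component of neurons, read 588, 866 and 431 in pools 1, 2 and 3, a 2.01-fold range. Fbxw7, the receptor for cyclin E and Notch proteins, read 436, 693 and 451, with pool 2 highest as for Fbxo45. Fbxw11, a receptor for phosphorylated beta-catenin, went the other way, at 1124, 785 and 614 on its brightest set and 917, 800 and 728 on the other, so that both sets had the same order of pools. Fbxo6, which recognises glycoproteins, had the same order at 1487, 1024.0 and 889. Fbxw2 was the closest, at 896, 836 and 929.7, and Fbxo3 followed at 767 ± 46.9 (SD, n = 3). The median deviation of the 11 F-box genes above the mean limit was 0.02, -0.03 and -0.19 on the log2 scale.

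Deubiquitinases remove ubiquitin. Of 29 measured, 16 were above background on all arrays, 5 on some and 8 on none. Uchl1, an abundant neuronal hydrolase that is used as a marker of neurons, read 2924, 2669 and 3826 in pools 1, 2 and 3. Uchl3 had no single-symbol probe set and was not analysed here. Usp14 and Uchl5, which act on the proteasome itself, stood at 478 ± 61.7 and 211 ± 36.0 (SD, n = 3), and Uchl5 was above background on no array. Usp5, which recycles free chains, was measured at 1117 ± 84.1 (SD, n = 3). Usp9x, an X-linked hydrolase of neural development, read 1698, 1793 and 1645 and was among the closest members with a 1.09-fold range, as was Usp10 with 975, 993 and 923.

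Among the deubiquitinases that varied more, Usp33 read 858, 1714 and 1194 in pools 1, 2 and 3, just under a 2-fold range. Usp22, the hydrolase of the SAGA complex, read 1277, 783 and 837, Usp4 read 1278, 1028 and 762, and Usp3 read 2047, 1333 and 1345. These 3 were highest in pool 1. Usp19, which has a form anchored in the endoplasmic reticulum, had the same highest pool on its brightest set, at 1808, 1367 and 1422, but read 559, 685 and 435 on the other, which was highest in pool 2. Usp1, a hydrolase of DNA repair, had 244, 452 and 401, of which the first lay under its limit. Of the 21 deubiquitinases above the mean limit, 9 were highest in pool 1, 8 in pool 2 and 4 in pool 3, against 34.3%, 33.2% and 32.5% of all genes above it. With median scaling 12 of the 21 were highest in pool 1, and the share of all genes highest in that pool was 42.8%.

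**Figure D2:**
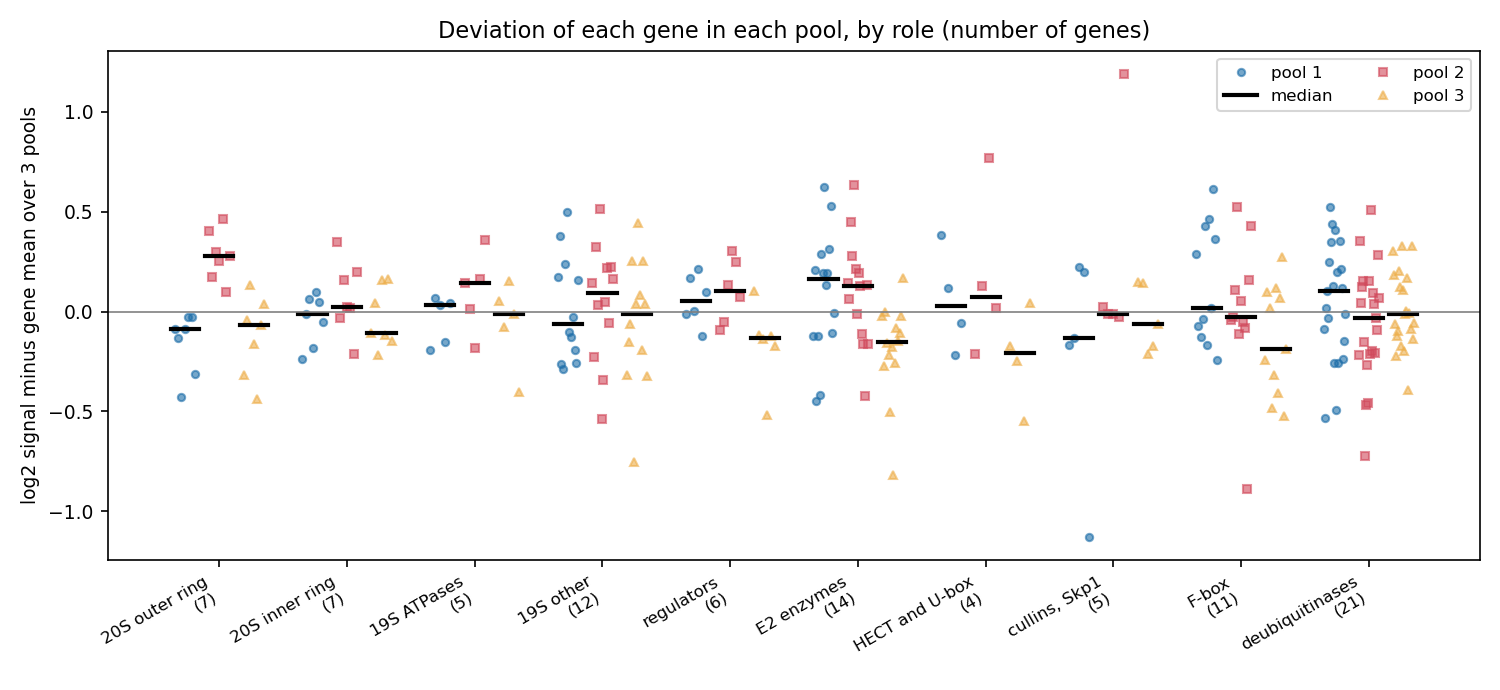
Deviation of log2 signal from each gene's own mean for member genes above the mean limit, by role, with the number of genes in brackets, pools as circles (1), squares (2) and triangles (3), and a black bar for each median. Roles with 1 or 2 genes above the limit are left out, and the alpha subunits of the 20S outer ring have the highest median, 0.28 in pool 2.

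Over the whole pathway, 43 of the 97 genes above the mean limit were highest in pool 2 (44.3%), 33 in pool 1 (34.0%) and 21 in pool 3 (21.6%). The shares for all 4051 such genes were 33.2%, 34.3% and 32.5%. Median scaling, which lowers pool 2 against pool 1, gave 35, 41 and 21 for the members in pools 2, 1 and 3, while the share of all genes highest in pool 2 was then 25.9%. Of the 66 genes outside the 20S and 19S groups, 25 were highest in pool 2, 28 in pool 1 and 13 in pool 3. The median deviation of the 97 genes was -0.01, 0.07 and -0.08 on the log2 scale in pools 1, 2 and 3, against 0.03, -0.01 and -0.01 for all genes above the limit.

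The pools repeated most members closely. The 119 member probe sets above the mean limit had a median log2 SD of 0.24 and ranged 1.36-fold at the median, against 0.27 and 1.42-fold for all 5066 such probe sets. The 52 members below the limit had a median SD of 0.64, against 0.66 for all probe sets below it. A range over 2-fold was reached by 13 of the 119 (10.9%), against 12.2% of all probe sets above the limit, a share near the background. Of these 13, 6 were above background on all arrays (Skp1, Ube2k, Psmd14, Ube2e1, Psmd3 and Fbxo45). A second Ube2k set, also above background throughout, ranged 1.13-fold. The other 7 were below their limit on at least 1 array, and those of Fbxw4, Ube3a, Psmg3 and Usp2 ranged 2.83-fold, 2.49-fold, 2.65-fold and 2.37-fold. The remaining 3 were further sets of Nedd4, Usp7 and Ube2h. With 1 pool left out, 4 sets passed where that pool was pool 2 and 7 where it was either other pool, and a range over 2 arrays is smaller by construction.

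**Figure D3:**
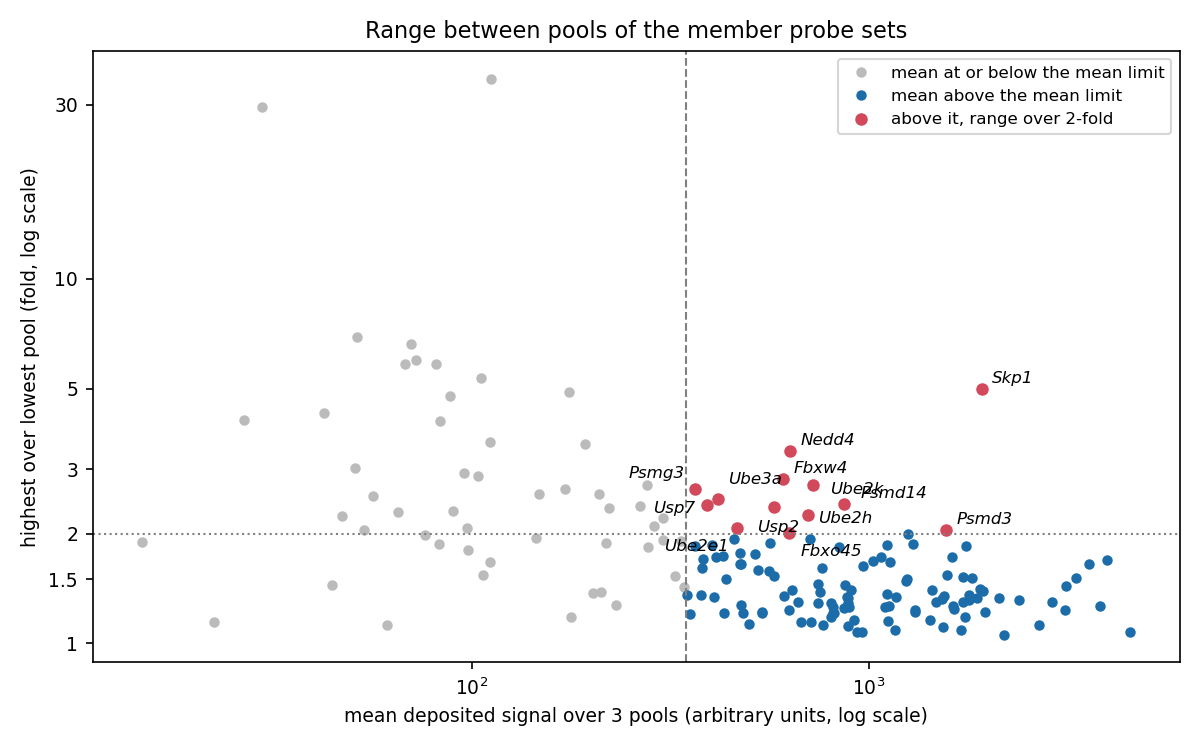
Ratio of the highest to the lowest pool against mean signal for the 171 member probe sets, both on log scales, with the 2-fold range as a dotted line and the mean limit of 346 as a dashed line. The 13 sets past both lines are named, and Skp1 stands apart at 4.98-fold.

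Several probe sets for 1 gene gave a check within each array. Of 35 member genes with more than 1 set, 20 had at least 2 sets above the mean limit, and in 8 of these the sets put the same pool highest. In the other 12 they did not. The same share over all genes of the array was not computed, so these counts do not set the members apart. Nedd4 differed most plainly, since its brightest set read 4271, 2825 and 2909 in pools 1, 2 and 3 and its other set, of the _f_at kind, read 277, 929 and 700.3. Pool 1 was thus the highest on one and the lowest on the other. Usp2 read 781, 329.5 and 625 on one set and 283, 399.8 and 456 on the other. Ube2z read 1089.8, 980.3 and 1233 on its brightest set and 692, 634 and 368 on the other, so that pool 3 was highest on one and lowest on the other.

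The sets of Fbxw5, Nedd4l, Psmc3, Ube2k, Ube2o, Usp19 and Psmg3 also put different pools highest, with pool 3 lowest on both for Ube2k. The brightest Psmg3 set read 809, 1046 and 808.7, with pools 1 and 3 level. The other read 519.8, 381 and 196, with pool 3 lowest. For the proteasome core, Psmb1 was highest in pool 2 on its brightest set (1045, 1566 and 1141) and nearly level on the other (1203, 1178 and 1109). Psmb5 read 1523, 1437 and 1312 on its brightest set and 472, 591 and 357 on the other. The sets of Usp34 kept the same order, at 2729, 2072 and 2379 and at 1051, 784 and 809. So did those of Usp3 as far as the highest pool, which was pool 1 on all 3 sets. Skp1 and all of the alpha subunits rest on a single set each.

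**Figure D4:**
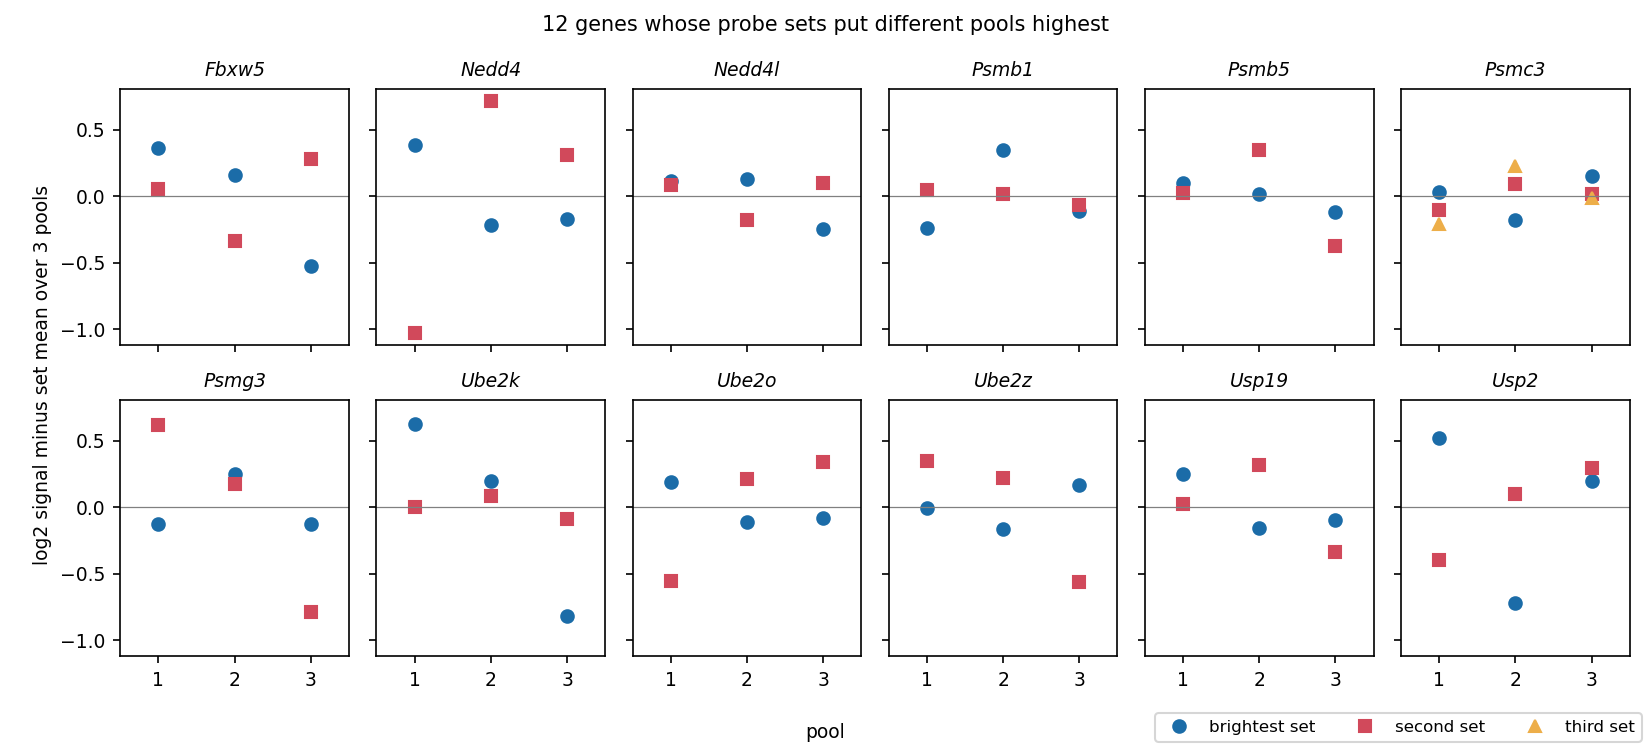
Log2 signal minus the set's own mean over the 3 pools for the 12 member genes with 2 or 3 probe sets above the mean limit that put different pools highest; circles are the brightest set, squares the second and triangles the third. For Nedd4 and Usp2 pool 1 is highest on one set and lowest on the other, and for Ube2z pool 3 is.

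Genes of the same pathway outside the naming rule were looked at from a separate list of 124 symbols, of which 87 were measured. Of these, 67 (77.0%) were above background on all arrays, 10 on some and 10 on none, against 40.2% of all named genes. Vcp, the segregase that pulls marked proteins from membranes and complexes, was very close between pools at 3148, 3146 and 3428. The adaptor Ddb1 of Cul4 ligases read 7378, 6226 and 8364. Elob and Eloc, adaptors of Cul2 ligases, read 8007, 7306 and 9105, and 795, 1021 and 840.4. Pomp, the maturation factor of the 20S core, read 2157, 1679 and 1935, so it was lowest in pool 2, where the alpha subunits were highest. Klhl7, a Cul3 adaptor mutated in human retinitis pigmentosa, was above background at 542.5, 797 and 598.

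Of the 74 listed genes above the mean limit, 6 had a range over 2-fold (8.11%), against 11.8% of all genes above it, and the median range was 1.37-fold. Pool 2 was highest for 28 of them, pool 1 for 27 and pool 3 for 19, against 33.2%, 34.3% and 32.5% of all genes above the limit. The widest was Rnf10, a RING protein, at 11141, 2804 and 9997 in pools 1, 2 and 3, a range of 3.97-fold with pool 2 lowest. Cops4, a subunit of the signalosome that strips Nedd8 from cullins, read 475, 1008 and 679.6, with pool 2 highest as for Uba3 and Nedd8. Cops3, at 1254, 1311 and 1112, and Cops8, at 967, 1347 and 860.2, were also highest in pool 2, and so was Cops2, which was above background on no array. Cops5, Cops6, Cops7a, Cops7b and Gps1 were highest in pool 3, with Cops6 at 2191, 1532 and 2247 and Gps1 at 2958, 3160.3 and 4932. Sqstm1, the p62 receptor that carries ubiquitinated cargo to autophagy, was highest in pool 3, at 1235, 1009 and 2364. Lens markers were highest in pool 3 too, and their part in the Sqstm1 signal was not tested. Otub1, a deubiquitinase outside the rule, was likewise highest in pool 3, at 472, 589 and 1064.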

How the data were processed

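Total RNA of 3 wild-type retina pools was measured on Affymetrix U74Av2 arrays, named in the labels' titles. The deposited intensity is 1 linear signal for each of 12488 probe sets. The software and scaling that the authors used were not given in the sources used here. After trimming 2% at each end the mean was 499.9 on every array, and the values were used as deposited. The 66 control sets were left out, which leaves 12422. Names came from GEO's platform annotation, updated by Entrez number (10817 of 10833 single-symbol sets); 396 sets had several symbols and 1237 none. Values under 1 were set to 1 before log2. The spread is the SD or range over the 3 pools, with no test, because there is 1 group and the number of arrays limits the precision. The labels do not say whether the pools shared mice, and they name no batch. Pools were numbered in order of deposit, and the number is a name only.

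Deviations were taken from each gene's own mean on the log2 scale, and the steps were tested on simulated data. Members, roles and lists were chosen with earlier results of these data known. Genes named by rule were all E1, immunoproteasome, SUMO and Nedd8 genes, the first 4 genes of each other role, those with a range over 2-fold, the narrowest and widest of each role, those with discordant sets, and Uchl1, Uchl3, Ube3a, Nedd4, Cul3, Skp1, Rbx1, Ube2c, Skp2 and Usp9x, where measured (71 genes); the others named were chosen after their values were seen. Python 3.11.15, pandas 2.3.3 and numpy 2.4.6 were used. Alternatives were the limit, scaling, floor, probe set choice, membership, filter and left-out pools.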

Additional observations from a re-analysis of the deposited data

Results flagged for a closer look

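The naming rule left out 8 probe sets that carry several gene symbols, at least 1 of which matches it, and 4 of these were above background on all arrays. They were singled out because they hold signal in data that none of the counts use. Their mean signals over the 3 pools were 4200, 2590, 1174 and 676 to the nearest unit, with the brightest at 4489, 3632 and 4479 in pools 1, 2 and 3, and which of the genes each set reads was not tested. Groups of 3 samples are too small for the check for single outlying samples, so it was not made.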

How the results depend on the processing

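The 6 results were the number of members above background on all arrays (102), the number with a range over 2-fold (13), the median SD (0.241 on the log2 scale), the number of pairs of role and pool with a median deviation over 0.2 (4), the number of genes whose probe sets put the same pool highest (8 of 20) and the number of other pathway genes above background on all arrays (67). The 4 pairs included Uba3, the only E1 gene above the mean limit, in pools 1 and 2, at -0.39 and 0.56. The others were the 20S alpha genes in pool 2, at 0.28, and the 4 HECT and U-box genes in pool 3, at -0.21. With the limit at the 75th percentile in place of the 90th, 20 members had a range over 2-fold. At the 95th percentile 1 pair of role and pool exceeded 0.2, and 5 of 11 genes had concordant sets. With no filter on low values 45 members had a range over 2-fold and 7 pairs exceeded 0.2. Leaving out 1 pool gave 4 to 7 members with a range over 2-fold, 0 to 4 pairs over 0.2 (0 without pool 2 and 2 without pool 1) and 8 to 14 genes with concordant sets (14 of 22 without pool 2). All other alternatives run stayed within 1.5 times the reported value. Some of them could not move a result and say nothing about its stability. Updating symbols changed none among the members, and averaging the probe sets of a gene leaves results counted by probe set as they are. The 20S alpha genes were highest in pool 2 in 7 of 7 cases after either scaling and in 6 of 6 with plain _at sets. Under median scaling the lead of Psma6 was very slight. A second background list was not available, so that alternative was not run, and the common limit on all arrays (100 members, 70 other genes) and all alternatives for which pool is highest were chosen after seeing the data. No detection call accompanies the signals, so that members near the limit are the least certain.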
